A study of Homo sapiens with 8 samples.

Results

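The libraries compared here were 4 of the 8 RNA-seq libraries of LK2, a human lung squamous cell carcinoma line, that the series holds. They carried a gene driven constitutively from a vector. The first-numbered GFP and DNp63 libraries (GFP 1 and DNp63 1) were made from cells with the vector pLEX_306. The second-numbered libraries (GFP 2 and DNp63 2) were made from cells with pLEX_307. GFP is the inert control protein and DNp63 is the p63 isoform without the N-terminal transactivation domain, the form that basal and squamous cells use. The rule used only these column and vector labels, although the split was picked with earlier results of these data known. The other 4 libraries held cells with pLIX_403-DNp63, 2 kept without doxycycline and 2 given 2 μg/ml doxycycline for 6 days. Those inducible libraries served here as a reference level and as a source for the estimate of the spread. LK2 cells of all 8 libraries were grown in RPMI-1640 with serum and antibiotics. As background that the labels do not state, lentiviral plasmids of these names differ in the promoter in front of the inserted gene: pLEX_306 carries the phosphoglycerate kinase promoter and pLEX_307 the elongation factor 1-alpha promoter. The labels do not say whether a library came from a pool or a clone, or from a separate culture or infection, so p-values measure only the spread between these libraries, which may be technical. Vector, library number and sequencing depth mark the same split and cannot be told apart.

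The results turn on 3 connected programmes. ATF4 is a transcription factor whose protein is made when the kinases of the integrated stress response phosphorylate eIF2-alpha, and it switches on genes for amino acid synthesis, amino acid uptake and tRNA charging, often together with C/EBP partners at a composite DNA element. The unfolded protein response of the endoplasmic reticulum (ER) shares one of those kinases, PERK, and adds the ATF6 and XBP1 branches, which raise ER chaperones through a CCAAT-containing element. Cholesterol synthesis and uptake are run by SREBP2, which is held in the ER until sterols fall.

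Of the promoters of these genes, 6 held the C/EBP-ATF letters TGATGNAA on either strand within the 250 bases before the RefSeq start site. They are shown because they include ATF3, CHAC1 and ASNS, which were higher in both first libraries. Sequences are from RefSeq on GRCh38.p14, each printed in the direction of its gene with the match in capitals. Where the capitals read TTNCATCA, the match was on the opposite strand.
ATF3 (chr1:212565201-212565238, plus strand): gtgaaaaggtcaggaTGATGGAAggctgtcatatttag
CHAC1 (chr15:40953247-40953284, plus strand): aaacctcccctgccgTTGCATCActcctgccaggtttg
FGF21 (chr19:48755455-48755492, plus strand): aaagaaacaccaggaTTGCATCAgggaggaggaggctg
ASNS (chr7:97872454-97872491, minus strand): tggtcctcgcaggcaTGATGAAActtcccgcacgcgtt
MTHFD1L (chr6:150866342-150866379, plus strand): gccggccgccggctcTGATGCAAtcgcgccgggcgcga
GOT1 (chr10:99430800-99430837, minus strand): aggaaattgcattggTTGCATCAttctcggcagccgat
A promoter was found for 16 of the 18 tested ATF4 regulators, of which 3 held the letters, and for 10 of the 16 tested amino acid synthesis genes, of which 3 held them. None of 10 amino acid transporter promoters did, and only 2 of 20 tRNA synthetases were matched by symbol. The same letters occurred in 870 of all 27305 promoters, or 3.19%. The match is a description of these windows only.

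The 4 constitutive libraries held 2758158 (GFP 1), 4819186 (GFP 2), 3348421 (DNp63 1) and 4924534 (DNp63 2) counts, so the first libraries were the shallower in both pairs. The inducible libraries held 5067659 to 10372248 counts. A level of 3 counts, taken as the floor, corresponded to 0.289 to 1.09 CPM, the read count relative to library size after TMM scaling (trimmed mean of M-values). TP63, the inserted gene, matched the labels at 0.739 CPM in GFP 1, 1.91 in GFP 2, 1850.1 in DNp63 1 and 3816 in DNp63 2, with 2 counts in GFP 1 and 9 in GFP 2. In the 2 libraries made to express it, TP63 was thus higher with pLEX_307 than with pLEX_306. The fitted first-minus-second difference of TP63 was -1.06 ± 0.20 on the log2 scale (SE; 2 libraries a vector; edgeR's quasi-likelihood test, adjusted p = 0.0135), and the call was lost when uninduced 2 or either induced library was left out (adjusted p 0.0501 to 0.0719) and when either DNp63 library was (0.466 to 0.467). The epithelial markers EPCAM, CDH1, KRT8 and KRT18 were present at 112 CPM or more in all 4 constitutive libraries, while squamous markers varied. In GFP 1 and GFP 2, KRT5 was at 0.369 and 0.635 CPM, PKP1 at 1.11 and 0.635, KRT6A at 2.22 and 5.93 and DSG3 at 15.5 and 5.51. SOX2, also set as a marker of the line, was at 278 and 517 CPM there. Of the 23 squamous and basal genes listed, the 15 tested summed to 1907 and 1803 CPM in the GFP and 3057 and 2908 in the DNp63 libraries. Of the markers of other cells, 4 of 10 fibroblast, 7 of 13 immune and endothelial and 6 of 13 other lung epithelial genes were at 0 in all 4 libraries. The immune and endothelial genes summed to 4.80 to 4.86 CPM in the first and 3.49 to 4.87 in the second libraries. Fibroblast genes summed to 17.1 to 21.4 CPM in the first and 18.4 to 30.8 in the second. Other lung epithelial genes were higher, at 51.1 to 159 CPM in the first and 56.4 to 305 in the second.

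Over 12303 tested genes, 488 (3.97%) differed between the vectors at an adjusted p below 0.05, 294 (2.39%) higher and 194 (1.58%) lower in the first libraries. At an unadjusted p below 0.05 there were 2508 (20.4%). The median difference over all tested genes was -0.01 on the log2 scale, and the smallest called difference was 0.58. These calls draw on the close agreement of the inducible libraries: the median absolute log2 difference within a pair was 0.371 for GFP and 0.405 for DNp63 against 0.170 and 0.220 for the uninduced and induced pairs. With the 4 constitutive libraries alone, which leave 1 residual degree of freedom, 5 genes were called. They were SNHG1, RSL24D1, C14orf2 and INHBE, higher in the first libraries, and COL17A1, lower there, each at an adjusted p of 0.0453, and 1147 genes had an unadjusted p below 0.05. The count fell to 192 and 198 when an uninduced library was left out and to 140 and 142 when an induced library was. Leaving out one library of a constitutive pair leaves the other pair's difference as the estimate, and then 2015 to 2029 genes were called from the DNp63 pair and 1272 to 1292 from the GFP pair. For this reason pair differences are given where they depart from the fitted value. A call lost without either library of a group is one that ended when 1 of them was left out, whichever it was.

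The pairs shared part of their difference. The log2 differences of the GFP and DNp63 pairs correlated at 0.220 across the 12303 genes, which are not independent replicates, against -0.03 for the uninduced and induced pairs ordered by library number. By CPM, 3455 genes (28.1%) were higher in the first library of both pairs and 3549 (28.8%) were lower in both. A test of the difference between the pairs (the interaction of vector and inserted gene) called 1043 genes (8.48%). For 540 (4.39%) the first-minus-second difference was more positive under DNp63 and for 503 (4.09%) more negative. In 840 of them (6.83%) the pairs had opposite signs. That test has 1 library in each combination, and its spread comes from the inducible pairs only, so the single libraries are assumed to vary as those do. The differences within the constitutive pairs, which hold the vector difference as well, were the larger, and interaction p-values are too small if constitutive libraries vary more than inducible ones. DESeq2 called 492 genes and limma-voom 639 in the same model, and leaving out an induced library gave 1737 or 1750 calls. Both the shared and the opposed parts are visible in the plot of one pair's differences against the other's.

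**Figure D1:**
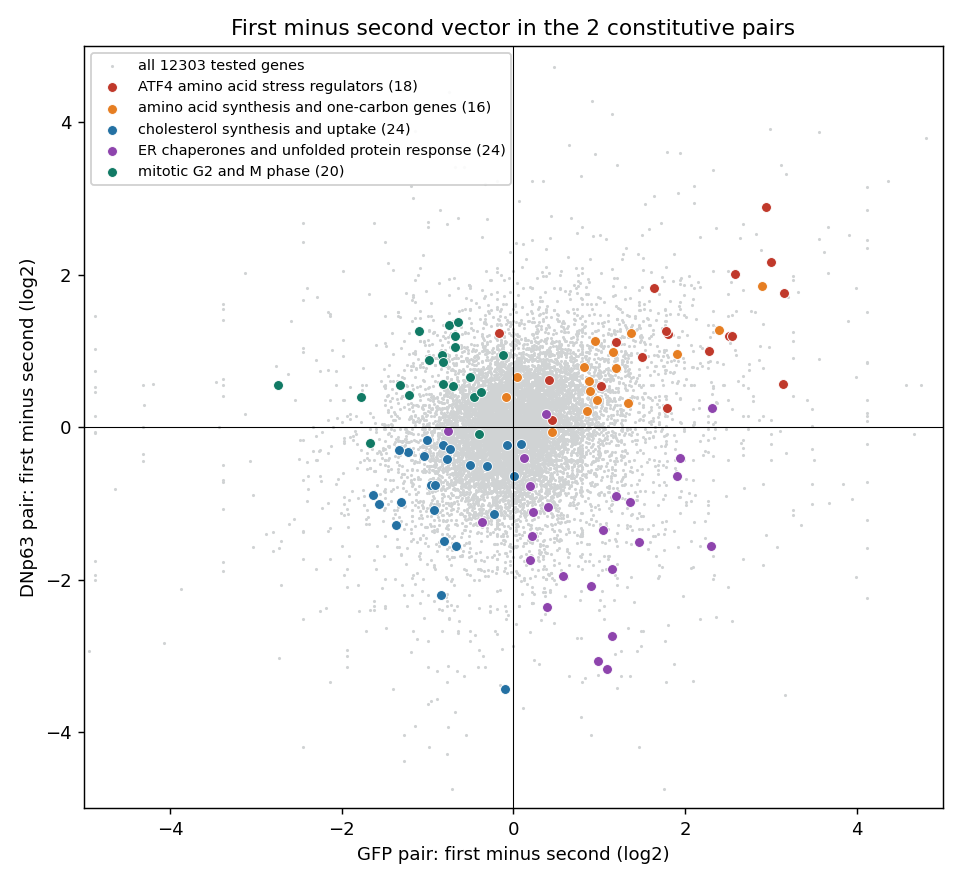
Each point is a tested gene, placed by its log2 difference, first minus second library, in the GFP pair (x axis) and the DNp63 pair (y axis). Coloured points are members of 5 gene lists, and 98 genes lie outside the axis limits of 5. ATF4 regulators and amino acid synthesis genes lie mostly to the upper right, cholesterol genes to the lower left, ER chaperone genes mostly to the lower right and mitotic genes mostly to the upper left.

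ATF4-pathway regulators as a list were higher in the first libraries with either inserted gene, though by less in the DNp63 pair. The DNp63 pair minus the GFP pair had a list median of -0.57 on the log2 scale, against -0.02 over all genes. Of the 18 listed regulators, all tested, 13 were called higher and none lower, beside 2.39% and 1.58% of all genes. Their median difference was 1.54 on the log2 scale, 1.79 in the GFP pair and 1.19 in the DNp63 pair, against -0.01 over all genes. By CPM, 17 of 18 were higher in the first library of both pairs, beside 28.1% of all genes. The list was drawn up with earlier results of these libraries known, so its count is a description. The listed genes together held 0.399% of counts in GFP 1, 0.165% in GFP 2, 0.725% in DNp63 1 and 0.398% in DNp63 2, and 0.172% to 0.181% in the inducible libraries. GFP 2 therefore sat near the level of the inducible cells and the other 3 constitutive libraries above it. ATF4 itself, whose activity is set mainly at translation, was at 1246 CPM in GFP 1, 912 in GFP 2, 1289 in DNp63 1 and 1212 in DNp63 2. Its mRNA differed little, by 0.27 ± 0.15 on the log2 scale (adjusted p = 0.336).

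DDIT4 encodes REDD1, an inhibitor of mTORC1, and was at 277 CPM in GFP 1, 46.4 in GFP 2, 919 in DNp63 1 and 229 in DNp63 2, with 79.9 to 88.3 CPM in the inducible libraries. Within each pair the first library was the higher, although DNp63 2 was close to GFP 1. The fitted difference was 2.28 ± 0.18 on the log2 scale (adjusted p = 0.000129). INHBE, an activin-family subunit, was at 45.8 CPM in GFP 1, 5.93 in GFP 2, 84.9 in DNp63 1 and 11.4 in DNp63 2 and at 7.66 to 10.8 CPM in the inducible libraries. Both first libraries lay above all 6 others, and the pairs gave 2.95 and 2.89 on the log2 scale (fit 2.91 ± 0.25, adjusted p = 0.000169). CEBPB, a bZIP factor that pairs with ATF4, was at 249 CPM in GFP 1, 28.0 in GFP 2, 389 in DNp63 1 and 115 in DNp63 2. The GFP pair differed more than the DNp63 pair (3.15 and 1.76 on the log2 scale), and this interaction was called (-1.39 ± 0.27, adjusted p = 0.000764). ATF3, another bZIP factor and a target of ATF4, was at 127 CPM in GFP 1, 41.1 in GFP 2, 118 in DNp63 1 and 33.4 in DNp63 2, so that the first libraries stood apart from the second with no overlap.

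The other called regulators covered the later and the secreted arms of the response. DDIT3, the pro-apoptotic factor CHOP, was at 119 CPM in GFP 1, 24.6 in GFP 2, 245 in DNp63 1 and 123 in DNp63 2, a difference of 1.58 ± 0.25 on the log2 scale (adjusted p = 0.00583). CHAC1, which degrades glutathione, and SESN2, a leucine sensor upstream of mTORC1, differed by 1.82 and 1.82 (adjusted p 0.00298 and 0.00504). The secreted factors GDF15 and STC2 were higher by 1.496 and 1.16, and the bZIP factor JDP2 by 1.49. TRIB3, a pseudokinase that restrains ATF4, was at 408 CPM in GFP 1, 46.2 in GFP 2, 551 in DNp63 1 and 372 in DNp63 2, so that its difference lay mostly in the GFP pair (3.14 against 0.57 on the log2 scale; interaction adjusted p = 4.25e-10). VLDLR and CEBPG completed the called set at 1.18 and 0.77. The calls of TRIB3 (adjusted p 0.0749 to 0.125) and CEBPG (0.104 to 0.112) were lost whichever inducible library was left out, that of CEBPG also without either GFP library (0.0737 to 0.0840), and that of VLDLR without either induced library (0.0593 to 0.0610). TRIB3 was also lost with DESeq2 (0.111) and CEBPG with upper-quartile scaling (0.0544). ATF4, ATF5, NUPR1, PPP1R15A and FGF21 were not called. FGF21 had 5 counts in GFP 1, 1 in GFP 2, 49 in DNp63 1 and 16 in DNp63 2.

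**Figure D2:**
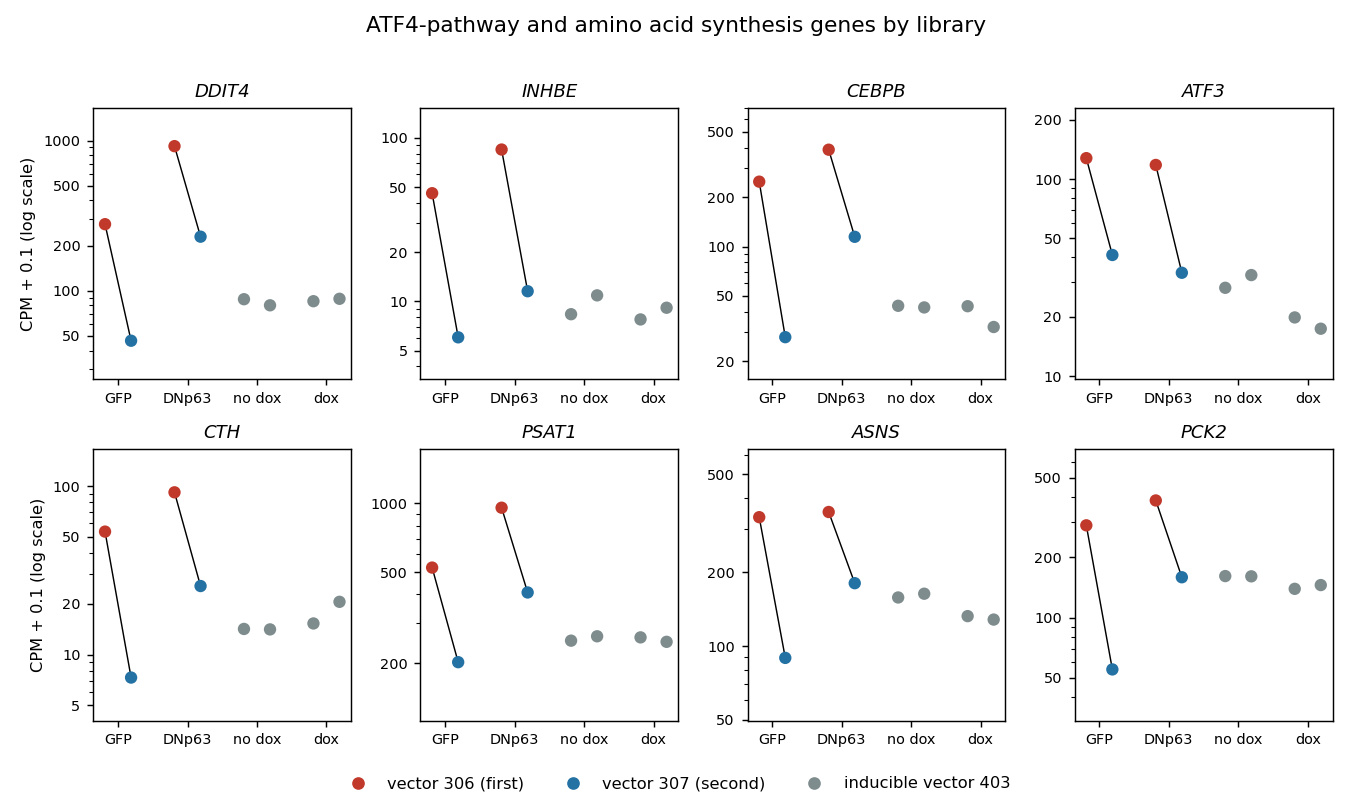
Scaled CPM plus 0.1, on a log axis, in each of the 8 libraries for 4 ATF4-pathway regulators (top) and 4 amino acid synthesis genes (bottom). Lines join the libraries of a constitutive pair, "dox" marks doxycycline, and in every panel the first library (red) is above the second (blue) in both pairs.

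Genes of amino acid synthesis and one-carbon metabolism followed the same direction with smaller differences. Of the 16 listed, 10 were called higher and none lower in the first libraries, beside 2.39% and 1.58% of all genes, the median was 0.79 on the log2 scale, and 14 were higher in the first library of both pairs, beside 28.1%. CTH, which makes cysteine from cystathionine, was at 53.6 CPM in GFP 1, 7.20 in GFP 2, 91.7 in DNp63 1 and 25.4 in DNp63 2. It showed the widest gap of the list, 2.28 ± 0.27 on the log2 scale (adjusted p = 0.000798). PSAT1, of serine synthesis, was at 524 CPM in GFP 1, 202 in GFP 2, 958 in DNp63 1 and 408 in DNp63 2 and at 248 to 262 CPM in the inducible libraries. GFP 2 was thus below the inducible libraries while DNp63 2 was above them, and the first-minus-second difference was nearly equal in the pairs (1.37 and 1.23; fit 1.30 ± 0.15, adjusted p = 0.000719). ASNS, asparagine synthetase, was at 335 CPM in GFP 1, 89.4 in GFP 2, 351 in DNp63 1 and 180.2 in DNp63 2 and at 128 to 163 CPM in the inducible libraries. The first libraries were alike and the second were not, giving pair differences of 1.91 and 0.96 on the log2 scale (interaction adjusted p = 0.00476).

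PCK2, mitochondrial phosphoenolpyruvate carboxykinase, was at 289 CPM in GFP 1, 55.1 in GFP 2, 385 in DNp63 1 and 159 in DNp63 2 (fit 1.81 ± 0.23 on the log2 scale, adjusted p = 0.00141). DNp63 2 lay among the inducible libraries (139 to 161 CPM) and GFP 2 below them. The remaining called members were PSPH (1.04), MTHFD2 (0.98), GPT2 (1.07), GOT1 (0.81), PYCR1 (0.74) and SHMT2 (0.69), which serve serine, folate, alanine, aspartate, proline and glycine steps. The calls of GOT1, PYCR1 and SHMT2 were lost whichever inducible library was left out, at adjusted p-values of 0.0584 to 0.109. PHGDH, the first enzyme of serine synthesis, had a difference of 0.67 ± 0.17 and missed the threshold (adjusted p = 0.0515).

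Uptake and tRNA charging moved in fewer genes. Of 11 tested amino acid transporters 3 were called higher, beside 2.39% of all genes. SLC3A2, the heavy chain shared by several transporters, was at 1472 CPM in GFP 1, 656 in GFP 2, 2578 in DNp63 1 and 1524 in DNp63 2 (fit 0.96 ± 0.15 on the log2 scale, adjusted p = 0.00575). DNp63 2 was as high as GFP 1, and the difference held within pairs only. SLC1A4 (1.56) and SLC6A9 (1.26) were the others, with differences in the GFP pair of 2.45 and 2.01 and in the DNp63 pair of 0.82 and 0.63 (interaction adjusted p 0.000217 and 0.00339). Over the list the median was 0.91 in the GFP pair and -0.27 in the DNp63 pair. Of 20 tRNA synthetases 4 were called higher, beside the same 2.39%: WARS at 1.19, GARS at 1.02, TARS at 0.76 and YARS at 0.58 on the log2 scale. When either induced library was left out the calls of SLC1A4 and GARS were lost (adjusted p 0.0705 to 0.0722), and those of SLC6A9, TARS and YARS were lost whichever inducible library was left out (0.0513 to 0.149).

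Cholesterol genes were lower in the first libraries in both pairs. None of the 24 tested members had a fitted difference above 0, and 10 were called lower beside 1.58% of all genes. By CPM, 22 were lower in the first library of both pairs, beside 28.8% of all genes. The median was -0.80 on the log2 scale (-0.84 in the GFP pair and -0.70 in the DNp63 pair). Relative to the uninduced mean, the median of the list was -0.38 in GFP 1, 0.40 in GFP 2, -1.28 in DNp63 1 and -0.42 in DNp63 2. GFP 2 was therefore above the inducible cells and the other 3 below them. Only 3 of the calls were made without either induced library, 4 without uninduced 2 and 5 without uninduced 1.

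INSIG1, which retains SREBP2 in the ER, was at 14.04 CPM in GFP 1, 36.2 in GFP 2, 4.29 in DNp63 1 and 10.5 in DNp63 2 and IDI1, of isoprenoid synthesis, at 24.8 CPM in GFP 1, 76.9 in GFP 2, 18.6 in DNp63 1 and 34.5 in DNp63 2. In the inducible libraries INSIG1 was at 29.02 to 32.5 CPM and IDI1 at 60.8 to 75.5 CPM. The first was the lower library in each pair. Both first libraries were below all inducible ones, but so was DNp63 2, whose INSIG1 was also below that of GFP 1. The differences were -1.34 ± 0.25 and -1.28 ± 0.23 on the log2 scale (adjusted p 0.0139 and 0.0103). FDFT1, DHCR7, MVK, MVD, MSMO1 and FDPS were also called, at -0.86, -0.84, -1.001, -1.06, -1.28 and -0.78. FDFT1 was lost without uninduced 2 or either induced library (0.0509 to 0.0588), and DHCR7, MVK, MVD, MSMO1 and FDPS whichever inducible library was left out (0.0571 to 0.141). FDPS and MSMO1 were also lost without either GFP library (0.0828 to 0.149), and MVD without either DNp63 library (0.0963 to 0.0993). MVK was not called by DESeq2 or limma-voom (0.0613 and 0.0652) nor MSMO1 by limma-voom (0.0650), and FDPS lost its call with RLE size factors, with library totals alone (0.0510) and at a minimum count of 30 (0.0517). The sterol element letters TCACNCCAC, on either strand, were in 1 of 18 matched promoters (SREBF2) and in 0.875% of all.

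Fatty acid synthesis gave 3 calls of 10 tested, all lower, beside 1.58% of all genes. ACSS2, which makes acetyl-CoA from acetate, was at 15.9 CPM in GFP 1, 55.7 in GFP 2, 6.00 in DNp63 1 and 11.4 in DNp63 2 (fit -1.47 ± 0.27 on the log2 scale, adjusted p = 0.0123). FADS2 (-0.70), a desaturase, and FASN (-0.76), fatty acid synthase, were the others, and FASN differed more in the GFP than in the DNp63 pair (-1.15 and -0.36; interaction adjusted p = 0.00657). The ACSS2 call was lost without either induced library (0.0537 to 0.0549) or either GFP library (0.119 to 0.120), and the FADS2 and FASN calls whichever inducible library was left out (0.113 to 0.141), FASN also without either GFP library (0.0602 to 0.0726) or at a minimum count of 30 (0.0544).

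ER chaperones lay in opposite directions in the pairs, each a comparison of 1 library with 1. None of 24 tested genes was called in the vector difference by edgeR or DESeq2, 1 was by limma-voom and 2 had an unadjusted p below 0.05, yet 19 were called in the interaction test with the spread of the inducible pairs, all more negative under DNp63, beside 4.09% of all genes, and 18 of those were higher in the first library with GFP and lower in the first with DNp63, beside 3.10%. The median of the list was 0.95 on the log2 scale in the GFP pair and -1.30 in the DNp63 pair. HSPA5, the master chaperone BiP, was at 1939 CPM in GFP 1, 394 in GFP 2, 1427 in DNp63 1 and 4192 in DNp63 2 and at 374 to 419 CPM in the inducible libraries. GFP 2 was at the level of the inducible cells, both first libraries were well above it and DNp63 2 was the highest. The interaction was -3.85 ± 0.18 on the log2 scale (adjusted p = 1.32e-17). CALR, calreticulin, was at 1447 CPM in GFP 1, 680.2 in GFP 2, 405 in DNp63 1 and 3645 in DNp63 2 and at 747 to 804 CPM in the inducible libraries. DNp63 1 was here the lowest of all 8 libraries and DNp63 2 the highest (-4.26 ± 0.18, adjusted p = 8.99e-19).

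HSP90B1, the ER form of HSP90, was at 702 CPM in GFP 1, 316 in GFP 2, 377 in DNp63 1 and 1372 in DNp63 2 (interaction -3.02 ± 0.20 on the log2 scale, adjusted p = 3.53e-13). PDIA4, a disulfide isomerase, was at 272 CPM in GFP 1, 206 in GFP 2, 129.7 in DNp63 1 and 664 in DNp63 2 (interaction -2.75 ± 0.21). The GFP libraries were close for PDIA4 and the DNp63 libraries far apart. HERPUD1, of ER-associated degradation, was at 302 CPM in GFP 1, 60.6 in GFP 2, 339.7 in DNp63 1 and 285 in DNp63 2 and at 65.9 to 84.5 CPM in the inducible libraries, the one interaction call of this list with a positive difference in both pairs (2.32 and 0.25). DNAJB11 and PDIA6 gave interactions of -1.94 and -1.64. PENK, the opioid precursor proenkephalin and no ER gene, had the smallest interaction p of all genes, at 862 CPM in GFP 1, 235 in GFP 2, 153 in DNp63 1 and 1322 in DNp63 2 (-4.98 ± 0.20, adjusted p = 1.22e-19). Leaving out a constitutive library leaves the difference of the other pair, which restates the 2 pairs. DESeq2 called 19 and limma-voom 18 of the list in the interaction, beside 492 and 639 of all 12303 genes.

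Of 22 matched ER-gene promoters, 6 held the ER stress element, CCAAT, 9 bases and CCACG on either strand, beside 22 of all 27305 promoters (0.0806%). Whether genes with the element differed from the other ER genes was not tested. They are shown because their genes include the ones with the widest opposed differences, and the motif was chosen after the values were seen. The element is in capitals, reading CGTGG to ATTGG where it lies on the opposite strand, and HSP90B1 held 2 matches, of which 1 is shown.
HSPA5 (chr9:125241376-125241424, minus strand): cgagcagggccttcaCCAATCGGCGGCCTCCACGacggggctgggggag
HSP90B1 (chr12:103930306-103930354, plus strand): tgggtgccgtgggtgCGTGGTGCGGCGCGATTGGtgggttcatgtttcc
CALR (chr19:12938369-12938417, plus strand): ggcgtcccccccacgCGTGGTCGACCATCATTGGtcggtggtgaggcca
CANX (chr5:179698763-179698811, plus strand): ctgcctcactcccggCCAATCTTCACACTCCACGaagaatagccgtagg
CRELD2 (chr22:49918539-49918587, plus strand): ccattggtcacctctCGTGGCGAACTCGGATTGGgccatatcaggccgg
XBP1 (chr22:28800588-28800636, minus strand): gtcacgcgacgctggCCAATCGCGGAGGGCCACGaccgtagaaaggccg
CANX, a lectin chaperone, CRELD2, an ER calcium-binding protein, and XBP1, a transcription factor of the response, gave interactions of -1.35, -3.89 and -2.35 on the log2 scale.

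**Figure D3:**
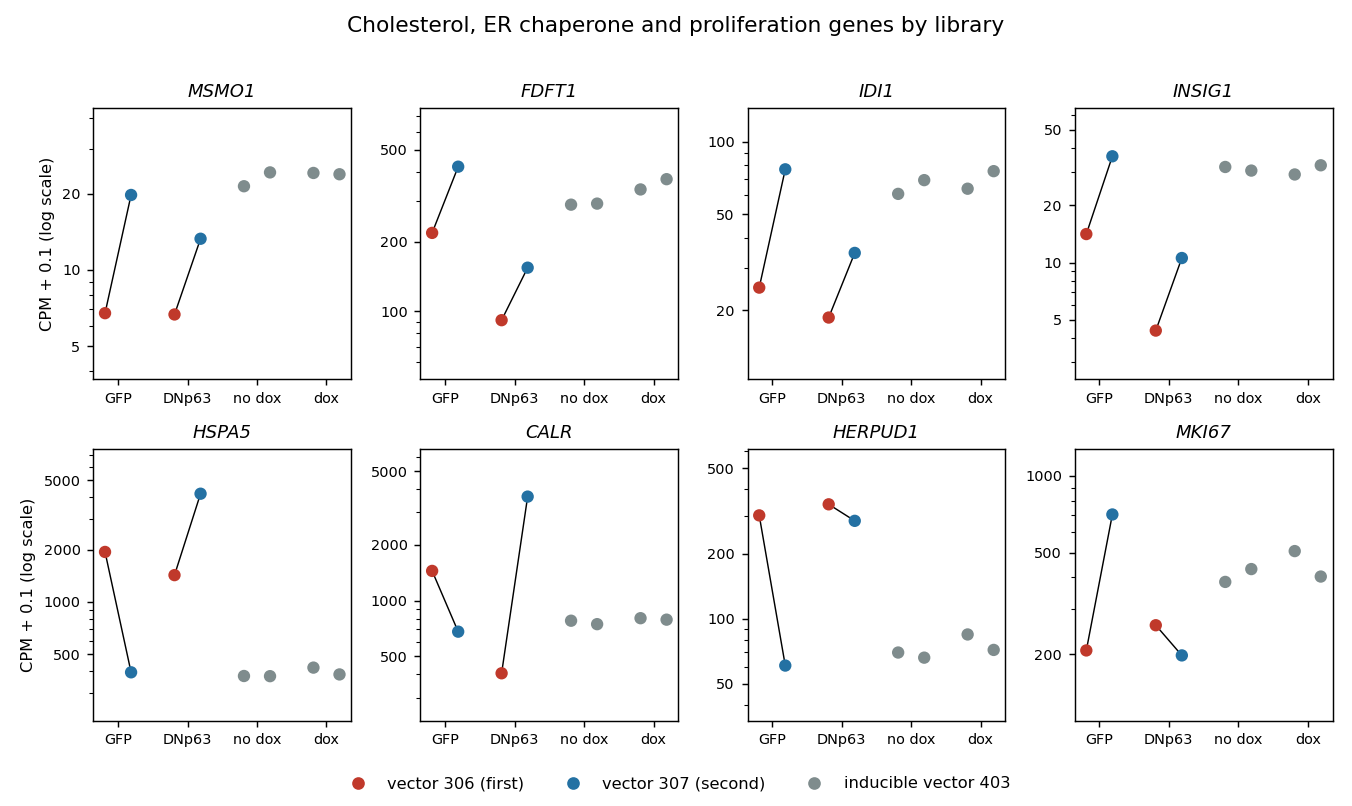
Scaled CPM plus 0.1, on a log axis, in each of the 8 libraries for 4 cholesterol genes (top), 3 ER genes and MKI67 (bottom). The cholesterol genes are lower in the first (red) library of both pairs, while HSPA5 and CALR cross over between the GFP and DNp63 pairs and MKI67 crosses the other way.

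Mitotic genes lay in the reverse directions, again with 1 library per combination. Of 20 tested, none was called in the vector difference by edgeR, DESeq2 or limma-voom or had an unadjusted p below 0.05, and 16 were more positive under DNp63 in the interaction, beside 4.39% of all genes. All 16 were lower in the first library with GFP and higher in the first with DNp63, beside 3.73%. MKI67, the Ki-67 proliferation marker, was at 207 CPM in GFP 1, 706 in GFP 2, 259.7 in DNp63 1 and 198 in DNp63 2 and at 384 to 507 CPM in the inducible libraries. GFP 2 was the highest library and the other 3 constitutive libraries were below the inducible ones (2.16 ± 0.23 on the log2 scale, adjusted p = 1.8e-08). CDK1, the mitotic kinase, was at 2.96 CPM in GFP 1, 19.9 in GFP 2, 4.29 in DNp63 1 and 2.91 in DNp63 2 (interaction 3.30 ± 0.89, adjusted p = 0.0148) and CCNB2, a cyclin, at 82.8 CPM in GFP 1, 90.2 in GFP 2, 59.7 in DNp63 1 and 31.0 in DNp63 2 (1.07, adjusted p = 0.0216). The listed genes held 0.172% of counts in GFP 1, 0.317% in GFP 2, 0.170% in DNp63 1 and 0.0979% in DNp63 2. DESeq2 and limma-voom each called 11 of the list in the interaction, beside 492 and 639 of all 12303 genes. In replication genes the interaction was called for 6 of 20, all in the same sense, and TYMS, thymidylate synthase, was the 1 vector call (-0.86 ± 0.19, adjusted p = 0.0308; lost whichever inducible library was left out, 0.0891 to 0.0950, or without either GFP library, 0.0802 to 0.0885).

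The lists as a whole are set out in the plot of list medians. With a minimum of 5 calls chosen after the values were seen, the lists below had interaction calls in 1 direction alone. Lists with interaction calls in both directions, among them ATF4 regulators and tRNA synthetases, are left out here. Beside mitotic and replication genes, 6 lists had 5 or more interaction calls and all of them more positive under DNp63 (4.39% of all genes). They were 11 of 24 NRF2 and antioxidant genes, 8 of 18 proteasome genes, 7 of 22 ribosome biogenesis genes, 6 of 33 respiratory chain genes, 5 of 22 splicing genes and 5 of 16 cytosolic heat shock genes. Beside the ER list, 2 had 5 or more calls and all of them more negative (4.09%), with 9 of 48 ribosomal protein genes and 7 of 11 amino acid transporters. The 1 vector call among the heat shock genes was HSPB1 (0.72, adjusted p = 0.0445, lost whichever inducible library was left out, 0.0990 to 0.116, or either DNp63 library, 0.0510 to 0.0555).

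**Figure D4:**
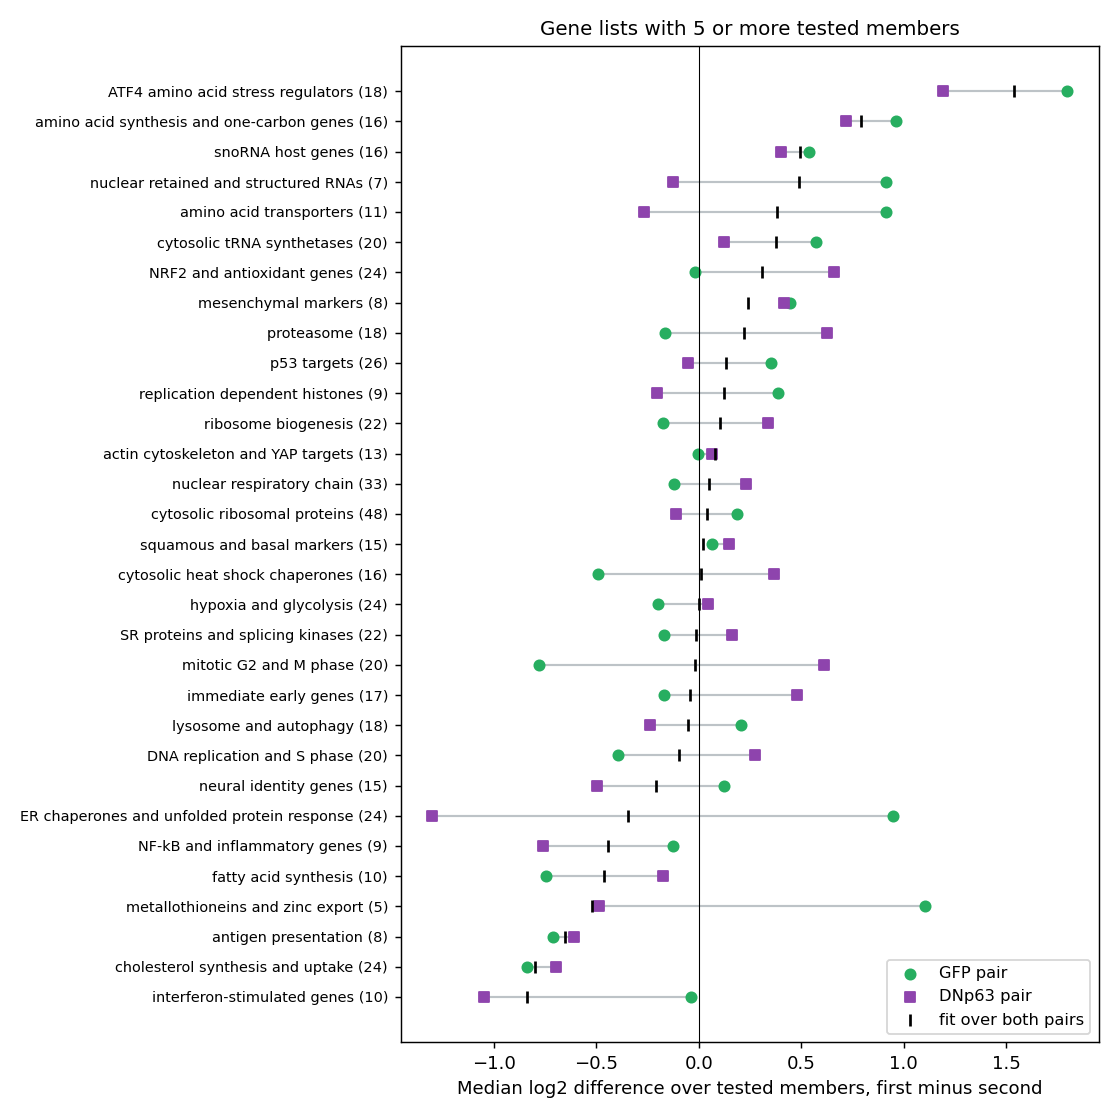
Median log2 difference, first minus second library, over the tested members of each gene list with at least 5 (number in brackets), in the GFP pair (circles), the DNp63 pair (squares) and the fit over both (ticks). ATF4 regulators have the highest and interferon-stimulated genes the lowest fitted median, and ER chaperone and mitotic genes have their pair medians on opposite sides of 0.

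Antioxidant genes gave 4 higher and 1 lower call of 24, beside 2.39% and 1.58% of all genes. AKR1C1, a ketosteroid reductase under NRF2, was at 977 CPM in GFP 1, 479 in GFP 2, 698 in DNp63 1 and 172 in DNp63 2 (fit 1.52 ± 0.21 on the log2 scale, adjusted p = 0.00268), and the near-identical AKR1C2 at 1.18, whose reads may be shared with it. NFE2L2, the gene of NRF2 itself, was at 96.1 CPM in GFP 1, 42.4 in GFP 2, 122 in DNp63 1 and 56.8 in DNp63 2, with pair differences of 1.18 and 1.10 (adjusted p = 0.00882). The first libraries were both above all others. GCLM was the other gene called higher, while AKR1B10 was lower (-2.17, adjusted p = 0.0328, lost whichever inducible library was left out, 0.0739 to 0.0797, and without either GFP library, 0.311 to 0.371). NQO1, the usual NRF2 reporter, was at 820.3 CPM in GFP 1, 844 in GFP 2, 1176 in DNp63 1 and 782 in DNp63 2 and not called (0.27 ± 0.17, adjusted p = 0.390).

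Genes of antigen presentation were lower in the first libraries, 3 of 8 tested being called, beside 1.58% of all genes, and none lying above 0. TAP1, which carries peptides into the ER, was at 0.369 CPM in GFP 1, 6.56 in GFP 2, 2.00 in DNp63 1 and 14.4 in DNp63 2, TAPBP, its partner tapasin, at 11.1 CPM in GFP 1, 26.3 in GFP 2, 3.71 in DNp63 1 and 19.0 in DNp63 2 and B2M, the light chain of class I molecules, at 16.3 CPM in GFP 1, 34.7 in GFP 2, 11.4 in DNp63 1 and 22.7 in DNp63 2. All 3 were lower in the first library of each pair, with differences of -3.14 ± 0.63, -1.71 ± 0.31 and -1.04 ± 0.22 on the log2 scale (adjusted p 0.0184, 0.0123 and 0.0250). The calls of TAP1 and TAPBP were lost without either induced library (0.0524 to 0.0567), TAP1 also without DNp63 2 (0.0539), and that of B2M whichever inducible library was left out (0.0691 to 0.0790). None of 9 NF-kB genes was called by edgeR, DESeq2 or limma-voom, 3 had an unadjusted p below 0.05 and all 9 fitted differences were below 0.

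Among p53 targets 4 were called higher and 3 lower of 26, beside 2.39% and 1.58% of all genes. AEN, an apoptosis-associated nuclease, was at 316 CPM in GFP 1, 145 in GFP 2, 123 in DNp63 1 and 61.3 in DNp63 2 and BAX, a pore-forming apoptosis effector, at 42.5 CPM in GFP 1, 107 in GFP 2, 32.6 in DNp63 1 and 66.5 in DNp63 2. They moved in opposite directions, 1.07 ± 0.16 and -1.19 ± 0.18 on the log2 scale (adjusted p 0.00378 and 0.00483). GADD45A was higher (0.98) and DDB2, of DNA repair, lower (-1.01), both lost whichever inducible library was left out (0.0547 to 0.0774). Of 17 tested immediate early genes 1 was called higher, ATF3 at 1.73, and 2 lower, beside 2.39% and 1.58% of all genes. The list median was -0.04. The called falls were EGR1 and DUSP6, an ERK phosphatase. EGR1 was at 11.8 CPM in GFP 1, 82.8 in GFP 2, 23.1 in DNp63 1 and 71.2 in DNp63 2, a difference of -2.14 ± 0.29 (adjusted p = 0.00252). DUSP6 was at 33.3 CPM in GFP 1, 79.2 in GFP 2, 12 in DNp63 1 and 41.7 in DNp63 2, a difference of -1.49 ± 0.21 (adjusted p = 0.00269). Both were lower in the first library of each pair. VEGFA, an angiogenic factor that hypoxia and ATF4 both raise, was at 244 CPM in GFP 1, 102 in GFP 2, 708 in DNp63 1 and 334 in DNp63 2 and higher by 1.17 ± 0.15 (adjusted p = 0.00176), while ADM and ALDOC of the same hypoxia list were at -0.80 and -0.96 (lost whichever inducible library was left out, 0.0550 to 0.0797). SLC2A3, a glucose transporter, was at 4.06 CPM in GFP 1, 0.635 in GFP 2, 30.3 in DNp63 1 and 5.43 in DNp63 2. Its pairs differed alike (2.64 and 2.47; fit 2.51 ± 0.51, adjusted p = 0.0202), and the call was lost without either DNp63 library (0.0956 to 0.191).

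The RNA make-up of the first libraries differed further in host genes of small nucleolar RNAs (snoRNAs), spliced transcripts that translation-coupled decay usually keeps low. Of 16 tested 6 were called higher and 1 lower, beside 2.39% and 1.58% of all genes, and 9 were higher in the first library of both pairs, beside 28.1%. SNHG1 was at 176 CPM in GFP 1, 2.12 in GFP 2, 179 in DNp63 1 and 6.98 in DNp63 2 and at 3.46 to 13.8 CPM in the inducible libraries. Both first libraries were more than 10 times as high as any other (5.31 ± 0.48 on the log2 scale, adjusted p = 0.000257). GAS5 was at 392.4 CPM in GFP 1, 143 in GFP 2, 368 in DNp63 1 and 145 in DNp63 2, SNHG17 at 62.4 CPM in GFP 1, 22.4 in GFP 2, 82.0 in DNp63 1 and 33.2 in DNp63 2 and SNHG8 at 56.9 CPM in GFP 1, 21.8 in GFP 2, 60.9 in DNp63 1 and 24.1 in DNp63 2, with fits of 1.40, 1.39 and 1.36. For each of them the first libraries did not overlap the second. The list held 0.161% of counts in GFP 1 and 0.148% in DNp63 1 against 0.102% in GFP 2 and 0.0991% in DNp63 2.

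SNHG1 belonged to a small set in which the first libraries stood alone. In 15 genes (0.122% of those tested) both first libraries exceeded 3 times the highest of the other 6, a rule set after the values were seen, and 2 genes (0.0163%), MAGEA1 and SPATA6L, lay under the lowest of the others divided by 3 in both. EIF3E, a subunit of translation initiation factor eIF3, was at 183 CPM in GFP 1, 5.51 in GFP 2, 68.6 in DNp63 1 and 7.18 in DNp63 2 and at 7.87 to 11.6 CPM in the inducible libraries (4.15 ± 0.36 on the log2 scale, adjusted p = 0.000169). RSL24D1, a ribosome assembly factor, was at 78.7 CPM in GFP 1, 3.81 in GFP 2, 23.7 in DNp63 1 and 2.52 in DNp63 2 (3.88 ± 0.36) and COX7B, a subunit of cytochrome oxidase, at 33.6 CPM in GFP 1, 0.847 in GFP 2, 21.4 in DNp63 1 and 0 in DNp63 2 (6.05 ± 0.64, a value that depends on the prior count, since DNp63 2 held no COX7B count). PSMA4, a proteasome subunit, was at 52.5 CPM in GFP 1, 10.2 in GFP 2, 41.4 in DNp63 1 and 6.79 in DNp63 2 (2.48 ± 0.27), and C14orf2, whose product sits on mitochondrial ATP synthase, at 38.8 CPM in GFP 1, 4.45 in GFP 2, 40.3 in DNp63 1 and 3.69 in DNp63 2 (3.28 ± 0.37). In all 5 the 4 inducible libraries and both second libraries were low together. INHBE, SNHG1, AHCTF1, COPS2, LINC00998 and WTH3DI were the other called genes of the 15. BCRP2, LOC101926889, ROR2 and TIMM23 were not called (adjusted p 0.114, 0.0991, 0.0684 and 0.107), nor were MAGEA1 and SPATA6L (0.0827 and 0.179). COPS2 (2.93, adjusted p = 0.0214) lost its call without either uninduced library (0.0567 to 0.0588) or either GFP library (0.0548 to 0.0979). WTH3DI had 8 counts in GFP 1, 14 in DNp63 1 and 0 in both second libraries. COPS2, LINC00998, WTH3DI, BCRP2, LOC101926889 and ROR2 were at 2.21 CPM or less in every library but the first ones. They passed the count filter only through the first libraries, so their place in this set and their calls are no support.

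**Figure D5:**
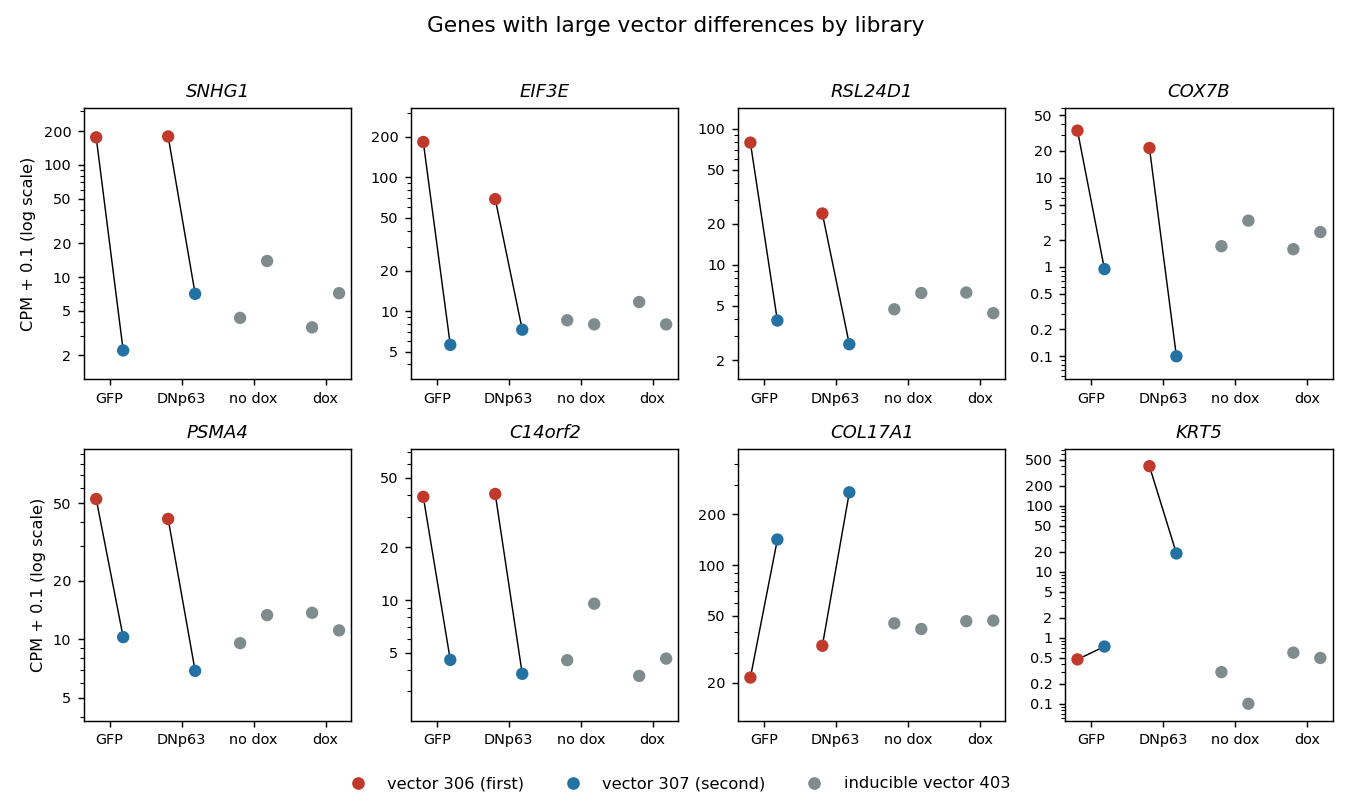
Scaled CPM plus 0.1, on a log axis, in each of the 8 libraries for 6 genes high only in both first libraries, for COL17A1 and for KRT5. The first 6 panels show both first libraries (red) above the other 6, COL17A1 shows the reverse within each pair, and KRT5 shows a difference in the DNp63 pair alone.

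Proteins of the ribosome and of the respiratory chain did not share this pattern as groups. Of 48 ribosomal protein genes 3 were called higher and 1 lower, beside 2.39% and 1.58% of all genes, with a median of 0.04 on the log2 scale. The interaction was called for 9 of the 48, all more negative under DNp63, beside 4.09%, and 23 had an unadjusted interaction p below 0.05. RPS24 was at 1156 CPM in GFP 1, 276 in GFP 2, 524 in DNp63 1 and 248 in DNp63 2 (1.57 ± 0.22, adjusted p = 0.00269), and RPL39, outside the list, at 32.1 CPM in GFP 1, 4.02 in GFP 2, 12 in DNp63 1 and 0.776 in DNp63 2 (3.30 ± 0.60, adjusted p = 0.0118). RPS6 (0.60), RPL7 (0.81) and RPL22 (-0.67) lost their calls whichever inducible library was left out (0.0892 to 0.136). RPS6 and RPL7 also lost them with upper-quartile scaling (0.0594 and 0.0592) and a minimum count of 30 (0.0556 and 0.0565), RPS6 without legacy estimates (0.0602) and RPL7 with totals alone (0.0512). Of 33 respiratory chain genes, COX7B and UQCRFS1 (1.34, adjusted p = 0.00643) were called higher, beside 2.39%, and NDUFB8 lower, beside 1.58% (-0.78, lost whichever inducible library was left out, 0.110 to 0.117, or either DNp63 library, 0.141 to 0.145). Mitochondrially encoded genes were not analysed here. Processed pseudogene copies, which can take or give reads, were annotated in GENCODE on another build (GRCh38). There were 14 for RPL39, 9 for RSL24D1, 2 for EIF3E and 1 each for COX7B and AHCTF1. RPL39 was not one of the genes in which the first libraries stood alone. Of those genes, SNHG1, PSMA4, INHBE, COPS2, BCRP2, ROR2 and TIMM23 had none, and C14orf2, LINC00998, LOC101926889 and WTH3DI were not matched. Such copies existed for 16.8% of matched genes called higher, 11.7% of those called lower and 10.5% of all. The part of such copies in the differences was not tested.

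The vector difference also ran with transcript length. From the shortest to the longest quintile of 11754 matched genes, the median log2 difference went from 0.09 through 0.06, -0.01 and -0.04 to -0.12. In the shortest quintile 3.49% of genes were called higher and 1.32% lower, and in the longest 1.57% and 2.34%. The pairs agreed in direction at both ends (0.03 and 0.14 for the shortest quintile in the GFP and DNp63 pair, -0.10 and -0.13 for the longest). Uninduced 1 minus 2 gave 0.05 and -0.06 at the ends and induced 1 minus 2 gave -0.04 and 0.08. The genes called higher had a median length of 2986 bases, those called lower 4383 and all matched genes 3722. The part of length or depth in the gene differences was not tested.

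Of genes lower in the first libraries, COL17A1, the hemidesmosome collagen of basal epithelium, had the smallest p of all. It was at 21.4 CPM in GFP 1, 142 in GFP 2, 33.1 in DNp63 1 and 271 in DNp63 2 and at 41.7 to 46.8 CPM in the inducible libraries. The first libraries lay below the inducible level and the second above it, with pair differences of -2.73 and -3.03 on the log2 scale (fit -2.89 ± 0.18, adjusted p = 2.05e-05). ADAM19, a membrane metalloproteinase, was at 49.5 CPM in GFP 1, 328 in GFP 2, 42.0 in DNp63 1 and 126 in DNp63 2 (-2.16 ± 0.24, adjusted p = 0.000574), and INPP5D, an inositol phosphatase, at 1.11 CPM in GFP 1, 34.7 in GFP 2, 2.00 in DNp63 1 and 15.5 in DNp63 2 (-3.83 ± 0.51, adjusted p = 0.00219). INPP5D was high in the second libraries only. PROM2 was at 4.80 CPM in GFP 1, 18.4 in GFP 2, 6.29 in DNp63 1 and 50.4 in DNp63 2 and PTX3, a secreted pentraxin, at 15.5 CPM in GFP 1, 68.2 in GFP 2, 0.286 in DNp63 1 and 3.10 in DNp63 2. Both were lower in the first library of each pair, with differences of -2.57 and -2.24. Other falls lost their call when a library of one pair was left out: PLAT (-2.96) and CYP4X1 (-2.74) did so without either DNp63 library (0.627 to 0.803), CYP4X1 also whichever inducible library was left out (0.0763 to 0.0952), MYH7B (-2.60) without either GFP library (0.0592 to 0.0635) and THBS1 (-3.39) without GFP 2 (0.0514).

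Several of the steepest rises were differences between the DNp63 libraries. KRT5, the basal keratin, was at 0.369 CPM in GFP 1, 0.635 in GFP 2, 398 in DNp63 1 and 18.8 in DNp63 2, with 1 and 3 counts in the GFP libraries (4.21 ± 0.43 on the log2 scale, adjusted p = 0.000524). DNp63 1 had the higher KRT5 although its TP63 was the lower, and without either DNp63 library the sign turned to -0.75. DESeq2 did not call KRT5 (2.34, adjusted p = 0.489) or SLA (adjusted p = 0.144). SLA, a signalling adaptor, was at 0.739 CPM in GFP 1, 0.635 in GFP 2, 226 in DNp63 1 and 1.75 in DNp63 2 and DKK1, a secreted Wnt inhibitor, at 4.43 CPM in GFP 1, 2.33 in GFP 2, 165 in DNp63 1 and 8.53 in DNp63 2. In both genes DNp63 1 stood alone, the calls were lost without either DNp63 library (adjusted p 0.409 to 0.962), and the interaction was called (adjusted p 0.00657 and 0.00209). FABP4, TCHHL1 and SP7 rested on the DNp63 pair likewise (0.0656 to 0.483 without either). KRT31, a hair keratin, differed in both pairs, at 44.0 CPM in GFP 1, 11.4 in GFP 2, 461 in DNp63 1 and 38.0 in DNp63 2 (2.95 ± 0.32, adjusted p = 0.000574). CLCA2 went the other way, at 0 CPM in GFP 1, 0.212 in GFP 2, 35.4 in DNp63 1 and 131 in DNp63 2 (-1.89 ± 0.31, adjusted p = 0.00820; 0.630 to 0.655 without either DNp63 library).

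SOX2 and POU3F2 (BRN2), the factors that the study is named for, were lower in the first libraries. Both are in the neural identity list used here, and SOX2 was also set as a marker of the squamous line. SOX2 was at 278 CPM in GFP 1, 517 in GFP 2, 68.3 in DNp63 1 and 96.4 in DNp63 2 and POU3F2 at 41.4 CPM in GFP 1, 119.9 in GFP 2, 2.86 in DNp63 1 and 12.4 in DNp63 2. For both genes the GFP libraries were above the DNp63 libraries and the first was the lower of each pair. POU3F2 differed by -1.68 ± 0.24 on the log2 scale (adjusted p = 0.00315). SOX2 differed by -0.71 ± 0.17 (adjusted p = 0.0420), a call lost whichever inducible library was left out (0.105 to 0.129) or without GFP 1 (0.0563). NES, nestin, was at 12.2 CPM in GFP 1, 9.32 in GFP 2, 1.43 in DNp63 1 and 4.27 in DNp63 2 and not called (-0.21 ± 0.42, adjusted p = 0.836). Of 15 neural identity genes, beside 2.39% and 1.58% of all genes, 1 was called higher, GRIK3 (1.66, from the GFP pair, since the DNp63 libraries held 3 and 0 counts), and 3 lower, the third being NPTX1 (-1.76, adjusted p = 0.0135). GRIK3 was lost whichever inducible library was left out (0.0604 to 0.0630) or either GFP library (0.0959 to 0.0973), and NPTX1 without either induced library (0.0507 to 0.0529) or either GFP library (0.0645 to 0.0651).

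The vector difference bore on the DNp63 comparison. With the vector term in the model, 1940 genes (15.8%) differed between constitutive DNp63 and GFP, 954 higher and 986 lower. Without it 1004 (8.16%) did, and all 1004 were among the 1940. Scaling by library totals alone gave 1160 higher and 769 lower, a shift of 0.1 on the log2 scale in the median of all genes.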

How the data were processed

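RNA from LK2 cells was polyA-enriched and sequenced as 38 bp read pairs, per the labels' protocols. The deposited table holds raw read counts per gene, which the authors made with TopHat2 2.1, HTSeq and SAMtools on hg19 and with DESeq2 downstream, per the submitters' processing notes. As to annotation, strand setting and filters, these are not given in the sources used, and reads of overlapping genes and close copies may be shared. Totals ran from 2758158 to 10372248 counts.

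Of 26760 genes, 12303 passed edgeR's filter (minimum count 10). The counts were fitted in edgeR 4.0.16 (R 4.3.3) with the quasi-likelihood test and scaling by the trimmed mean of M-values, over all 8 libraries, with 4 group means plus a vector term in the constitutive libraries (3 residual degrees of freedom). The interaction fit gave each constitutive library its own mean (2 residual degrees of freedom). P-values were adjusted by the Benjamini-Hochberg method over all tested genes and called below 0.05. Standard errors were the log2 difference over the root of F. Fitted differences, pair differences from the fit and interactions used edgeR's default prior count. A prior count of 2 was used only for log CPM values. Those gave the list levels relative to the uninduced mean, the median absolute differences within pairs and the correlations of pair differences. The vector term was tested on simulated counts drawn at the fit's own dispersions, to see whether set differences were recovered. The interaction test was not simulated, nor were constitutive libraries that vary more than inducible ones. Alternatives used DESeq2 1.42.0, limma 3.58.1 (voom), other scalings and filters, left-out libraries and fewer libraries.

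Genes were named by rule: TP63, SOX2, POU3F2 and NES, the 12 largest called rises and falls averaging 5 CPM or more and with 1 sign in both pairs, up to 4 genes of smallest p per list, the 5 smallest interaction p-values, the 8 most abundant genes, and all called ATF4, amino acid and cholesterol members. Other genes are named for their role, their motif or after their values were seen. The libraries and the 35 lists were chosen with earlier results of these data known. Replicate numbers did not pair the inducible libraries, where the differences by number correlated at -0.03 across genes. Results for some genes are not reported here.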

Additional observations from a re-analysis of the deposited data

Results flagged for a closer look

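The named genes below are those whose first-minus-second difference differed between the GFP and DNp63 pairs in the interaction test (edgeR's quasi-likelihood test, adjusted p below 0.05). By the naming rule, 5 genes were named for their interaction p, and the lists were chosen with earlier results known. Their number is therefore no result. Variation between single libraries cannot be told apart from a dependence on the inserted gene. Each value below is the log2 difference of the DNp63 pair minus that of the GFP pair, from 1 library per combination, with a spread taken from the inducible pairs.

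ER chaperone and folding genes were all more negative under DNp63: CALR (-4.26), HSPA5 (-3.85), HSP90B1 (-3.02), PDIA4 (-2.75), DNAJB11 (-1.94), PDIA6 (-1.64) and HERPUD1 (-2.06). Stress regulators and their metabolic, transport and charging genes went the same way, with TRIB3 (-2.58), CEBPB (-1.39), SESN2 (-1.35), CHAC1 (-1.33), DDIT3 (-1.28), PCK2 (-1.12), ASNS (-0.94), SLC1A4 (-1.62), SLC6A9 (-1.38), SLC7A5 (-0.66) and GARS (-0.82). Among abundant and structural RNAs and translation genes, the values were negative for RPPH1 (-4.67), EIF3E (-1.80), HIST2H2BE (-1.77), EEF2 (-1.26), RPS24 (-0.99), NEAT1 (-0.90), EEF1A1 (-0.77) and RPL7 (-0.71). A further set with negative values held the metallothioneins MT3 and MT2A, the opioid precursor PENK, the hyaluronan-degrading CEMIP, the antiviral OAS3 and the cadherin CDH11: MT3 (-5.13), PENK (-4.98), CEMIP (-3.17), OAS3 (-2.16), CDH11 (-1.92) and MT2A (-1.05).

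Cell cycle genes were more positive under DNp63: CDK1 (3.30), MKI67 (2.16), CCNB2 (1.07) and RRM2 (1.02). So were genes of oxidant and iron handling, ALDH3A1 (1.39), AKR1C1 (1.00), FTL (0.95) and FTH1 (0.91), and ATP5G1 (1.18), FDPS (0.89), FASN (0.79), GADD45A (0.77), TRA2B (0.74) and NCL (0.69). A mixed set of other genes was also more positive, at SLA (6.79), KRT5 (5.15), DKK1 (3.35), CYR61 (1.81), KRT31 (1.66), ADAM19 (1.14) and ACTB (0.97). For KRT5 and SLA the GFP libraries held 3 counts or fewer, so these values rest on the DNp63 pair and on the prior count.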

How the results depend on the processing

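The vector difference gave 470 to 537 calls under 3 other scalings, DESeq2, limma-voom, edgeR without legacy estimates and a minimum count of 30, against 488. It gave 1123 with no filter on low counts, 5 with the constitutive libraries alone, 220 with a replicate block in the inducible libraries too, and 140 to 2029 with a library left out. The inducible libraries share only a number, so the replicate block there is no pairing. The interaction gave 492 calls with DESeq2, 639 with limma-voom and 845 to 1750 with a library left out, against 1043. The DNp63 effect gave 1004 without the vector term (no replicate block) and 1249 to 2868 with a library left out, against 1940. Among named genes called in the main fit or in the changed one, 12 values turned sign, all with 1 constitutive library left out. Turned signs of genes called in neither fit, as where the pairs had opposite signs, are not in this count. With each library left out in turn, KRT5 ran from -0.75 (without DNp63 1) to 4.41, PENK from -3.12 to 1.87 (without a DNp63 library), CALR from -3.18 to 1.09 (without a DNp63 library), HSP90B1 from -1.88 to 1.15 (without a DNp63 library), HSPA5 from -1.57 (without GFP 2; -1.54 without GFP 1) to 2.30, and ALDH3A1 from -0.96 to 0.44 (without GFP 1; 0.42 without GFP 2). The sign changes are the values of the remaining pair. The cause of the other changes was not tested. At a floor of 3 counts the shallowest library resolves 1.09 CPM.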
